A study of Mus musculus with 12 samples.

Results

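Cadherins and protocadherins are cell surface proteins whose extracellular repeats bind calcium and, for most of them, the same molecule on a neighbouring cell. They were taken as every gene whose symbol is Cdh followed by a number or Pcdh followed by a number or letter, in the 2 expression tables of the study. 75 of the 17505 genes listed in either table met this rule, 72 of 16503 in the table on culture and 64 of 16169 in the table on the Nedd4L genotype, with 61 in both. They comprised 5 type I classical cadherins (Cdh1, Cdh2, Cdh3, Cdh4 and Cdh15), 8 type II classical cadherins, 3 other cadherins, 8 delta protocadherins, 3 other protocadherins and 48 clustered protocadherins. The 48 clustered genes, 5 alpha, 21 beta and 22 gamma, all lie on mouse chromosome 18.

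Muscle stem cells (MuSCs, or satellite cells) sit between the muscle fibre and its basal lamina. Classical cadherins tie them to the fibre through catenins, which link the cadherin tail to actin, and type I and type II members differ in the residues that form the adhesive bond. M-cadherin, encoded by Cdh15, is a long-used marker of these cells, and N-cadherin, encoded by Cdh2, is the other cadherin of the MuSC niche. The alpha and gamma clusters of protocadherins are made from arrays of first exons, each with its own promoter, whereas most beta genes have a single exon. The clustered protocadherins are best known for giving neurons individual surface identities.

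Each library came from 1000 cells and there were 3 libraries in each of 4 groups. Fresh MuSCs (replicates 04, 05 and 06) were sorted from the hindlimb muscle of wild-type (WT) mice, and myoblasts (04, 05 and 06) were cells of the same 3 mice after 3 days in growth medium with serum and bFGF. In a separate set of male mice aged 5 to 6 weeks, freshly sorted MuSCs came from 3 WT and 3 Nedd4L-cKO animals, the latter being Nedd4L fl/fl with 1 Pax7-Cre allele on C57BL/6. Cre removes exon 15, a stretch of the ligase's catalytic domain, in cells that express Pax7. Whether the WT animals carried Cre, and the age of the mice in the culture set, are not given in the sources used here. The sex of the culture set is not given either, beyond the methods' statement that in vitro work used primary myoblasts from male mice. The sort kept ITGA7+ cells that lacked CD31, CD45, CD11b and SCA1, so it held no antibody against mural, tendon or Schwann cells.

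The deposited values were DESeq2-normalized counts, given here as RPM (normalized counts per 1000000 of the mean library total of each table), and library totals lay between 33189802 and 50687122 normalized counts. Fresh MuSCs expressed the whole list of 7 MuSC markers at 1 RPM or more in every library. The summed level of the list was 5302 to 7595 RPM there against 643 to 674 RPM in myoblasts, where Calcr stood at 0.295 RPM or less. All but Itga7 were called lower in myoblasts, and Itga7, a marker of the sort, was at means of 206.5 and 304.5 RPM and not called. The sums of the lists for activated or differentiating myoblasts and for muscle fibres went from 1243 to 1506 RPM and 357 to 538 RPM in fresh MuSCs to 6191 to 7333 RPM and 8992 to 20593 RPM in myoblasts. In the first list Myod1, Myog and Mymk were called higher, while Mki67 (means of 92 and 71.9 RPM), Ccnb1 and Top2a were not called. In the second all were called higher but Myh4 and Pvalb, whose means were lower in myoblasts. In the genotype table the MuSC list summed to 5347 to 9128 RPM in WT and 4896 to 8141 RPM in Nedd4L-cKO MuSCs. The list for activated or differentiating myoblasts summed to 960, 363 and 206 RPM in WT and to 918, 517 and 960 RPM in Nedd4L-cKO libraries. All its genes had a difference above 0, and Ccnb1 alone was called, at means of 17.9 and 75.4 RPM (limma adjusted p = 0.0325). The targeted gene, Nedd4l, was at 70.2, 96.4 and 66.7 RPM in WT and at 30.2, 36.3 and 22.5 RPM in Nedd4L-cKO libraries. The transcript is still made without exon 15, so this gene level does not measure the deletion itself. In these bulk libraries, fewer cells of a type and less RNA per cell cannot be told apart.

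The cadherins that carried most of the signal lay outside the protocadherin clusters. Cdh15 (ENSMUSG00000031962) spans chr8:123574705-123596048 on the + strand of GRCm39, Cdh13 chr8:119010328-120051660 on the + strand and Pcdh18 chr3:49697731-49711830 on the - strand, and each value covers all exons of the gene. Per kilobase of exon, Cdh13 was the highest member in fresh MuSCs at 146 ± 38.5 RPM per kb (SD, n = 3), followed by Cdh15 at 39.2 ± 2.46, Pcdh18 at 15.4 ± 6.41 and Pcdhgc4 at 9.3 ± 0.711 RPM per kb. The single libraries of Cdh13 did not overlap with those of Cdh15, nor did Cdh15 with Pcdh18, while Pcdh18 and Pcdhgc4 were closer. In myoblasts the order changed to Cdh2 at 49.5 ± 2.94, Cdh13 at 36.9 ± 7.2, Cdh15 at 31 ± 4.13 and Pcdhgc3 at 13.7 ± 2.46 RPM per kb, and the SDs of Cdh13 and Cdh15 overlapped. WT MuSCs of the genotype table had Cdh13 at 123 ± 6.99, Cdh15 at 26.4 ± 2.51 and Pcdh18 at 18.6 ± 7.93 RPM per kb, the same order as in fresh MuSCs. The 2 tables were normalized separately, so levels are set side by side across them and not tested.

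To show what stands before the start of 3 of these genes, the 250 bases upstream are printed from the RefSeq promoter table (GRCm38.p6), in which 15 members had an entry. Cdh15 was high in both cell states, Cdh6 rose and Pcdh18 fell in culture. Capitals mark CANNTG, the E-box letters that myogenic and repressor basic helix-loop-helix and zinc finger factors can read, and each sequence runs 5′ to 3′ on the strand of its gene.
Cdh15, chr8:122848124-122848373, + strand: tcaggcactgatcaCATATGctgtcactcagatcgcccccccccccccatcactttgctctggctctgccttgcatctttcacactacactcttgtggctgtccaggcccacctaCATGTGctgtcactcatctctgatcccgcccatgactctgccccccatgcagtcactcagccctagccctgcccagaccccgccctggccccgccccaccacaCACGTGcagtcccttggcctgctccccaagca
Cdh6, chr15:13173676-13173925, - strand: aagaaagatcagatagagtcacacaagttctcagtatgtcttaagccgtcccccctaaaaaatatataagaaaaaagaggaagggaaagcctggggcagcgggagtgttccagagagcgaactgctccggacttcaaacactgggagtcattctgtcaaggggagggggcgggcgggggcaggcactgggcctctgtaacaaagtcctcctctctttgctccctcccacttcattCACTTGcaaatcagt
Pcdh18, chr3:49757317-49757566, - strand: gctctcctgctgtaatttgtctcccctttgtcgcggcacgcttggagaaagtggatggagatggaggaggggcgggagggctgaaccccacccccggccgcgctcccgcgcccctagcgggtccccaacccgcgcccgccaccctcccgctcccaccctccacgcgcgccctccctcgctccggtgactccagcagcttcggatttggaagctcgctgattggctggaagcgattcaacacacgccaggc
Cdh15 held 3 matches, Cdh6 held 1 and Pcdh18 held 0, and CANNTG, which reads the same on both strands, occurred in 66.2% of all 32851 promoter windows of this length. At least 3 matches occurred in 12.2% of the windows. None of the 3 held CAGCTG, found in 13.0% of all windows, or CACCTG or CAGGTG, found in 17.2%, and both of these are contained in the CANNTG search. A match is a description of the letters and not a measured binding site.

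The first comparison asked which members differed between fresh MuSCs and myoblasts of the same mice. 22 of the 64 members that passed a filter on low values differed, 15 higher and 7 lower in myoblasts, a share of 34.4% beside 42.8% of all 15345 genes tested (22.2% higher and 20.6% lower). This share is near the background and was not tested against it. 10 of the 22 called members reached 10 normalized counts in all 6 libraries, 12 did not in at least 1 library of the group where they are low, and 4 of the 12 (Cdh10, Cdh18, Pcdh1 and Pcdh20) reached them in no fresh MuSC library, so that their counts and directions are not independent of the filter. Groups did not overlap for 27 of the 64 members, 17 higher and 10 lower in myoblasts, against 55.2% of all genes (28.4% higher and 26.8% lower). A gene was called at a limma adjusted p of at most 0.05, and 8 of the 72 listed members had too few reads to be tested. Among the 22 non-clustered members tested 12 were called, 9 higher and 3 lower, and among the 42 clustered protocadherins tested 10 were called, 6 higher and 4 lower. The median difference in log2(RPM + 1) was 0.22 over the 64 tested members, 0.25 over all 72 without the filter and 0.04 over all genes tested, the last of which became 0.14 when each library was scaled to its own total. With 1 RPM added before the logarithm, differences of low genes come out smaller than their ratios. 13 of the 22 calls held in every alternative that tested them, and the other 9 were lost in at least 1, mostly when a single library was left out.

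Among the type I classical cadherins, N-cadherin moved from near 0 to the level of the most abundant members. Cdh2 (chr18:16700793-16942381, GRCm39, - strand) was at 0.367, 0.811 and 3.75 RPM in the fresh MuSC libraries 04, 05 and 06 and at 252, 277 and 249 RPM in the myoblast libraries. Every myoblast library stood far above every fresh MuSC library, and fresh MuSC 06 was the highest of the fresh ones. The means were 1.64 ± 1.84 and 259 ± 15.4 RPM (SD, n = 3), a difference of 6.84 in log2(RPM + 1) (SE 0.43, limma adjusted p = 8.57e-06). This was the largest difference among the members tested, in either direction.

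M-cadherin differed by far less. Cdh15 was at 190, 216 and 202 RPM in fresh MuSCs and at 140, 182 and 158 RPM in myoblasts, so that all 3 myoblast libraries lay below all 3 fresh MuSC libraries. The difference was -0.35 in log2(RPM + 1) (SE 0.18, 95% interval -0.75 to 0.06) and did not pass the test (limma adjusted p = 0.149). As a share of the summed RPM per kb of the 5 type I genes, Cdh15 made up 97.3% ± 0.0721 in fresh MuSCs and 38.1% ± 2.03 in myoblasts (SD, n = 3). Cdh2 made up 0.776% ± 0.875 and 61.1% ± 2.23 of the same sums. The 5 tested genes whose log2 levels followed Cdh15 most closely over these 6 libraries were Btd, Gm7331, Relb, Bivm and Zfp141, with Pearson's r from 0.98 to 0.997. These are the closest of 15345 genes in libraries that differ in growth state and in depth, given as a description with no test.

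The remaining type I genes were low. R-cadherin, encoded by Cdh4, was at 5.79, 5.81 and 1.76 RPM in fresh MuSCs and at 0.408, 1.49 and 1.09 RPM in myoblasts, without overlap, and fell by 1.37 on the log2(RPM + 1) scale (SE 0.43, limma adjusted p = 0.0287). The call was lost without fresh MuSC 04 or 05 or myoblast 04 or 06, with adjusted p from 0.0682 to 0.0896. P-cadherin, encoded by Cdh3, was at 0.733, 0.646 and 0.583 RPM in fresh MuSCs and at 0.929, 3.35 and 3.7 RPM in myoblasts, a difference of 1.04 (SE 0.36, limma adjusted p = 0.0431). Its call did not hold in limma fits with the mouse as a block (adjusted p = 0.0525), with a smaller pseudocount (0.0543), or without any single library other than myoblast 04 (0.0808 to 0.138). E-cadherin, encoded by Cdh1, was at 0.0247 RPM or less in fresh MuSCs and at 1.01, 0.287 and 0.271 RPM in myoblasts, too low to be tested.

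**Figure D1:**
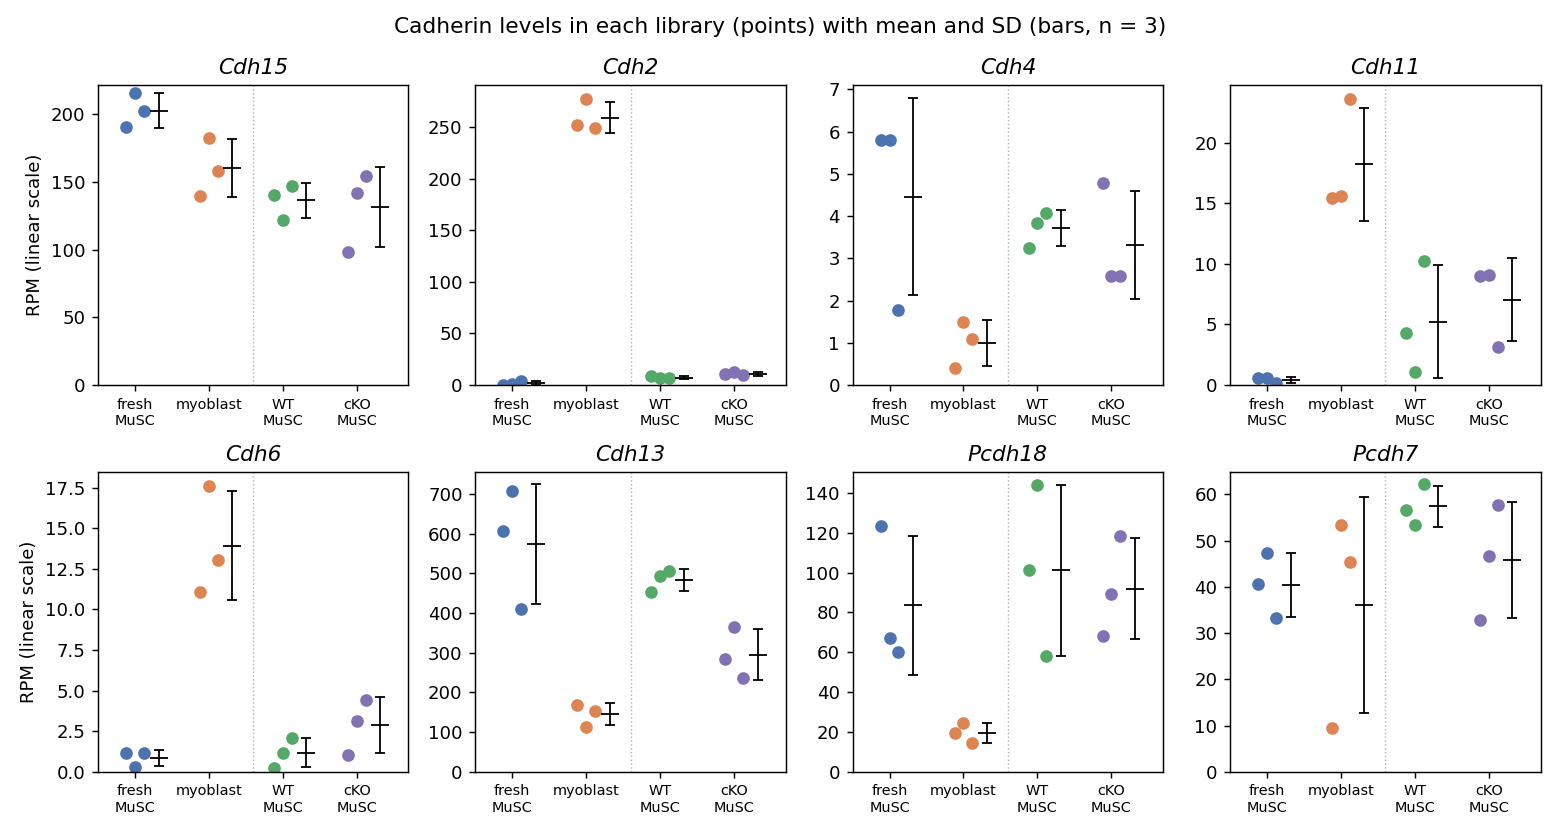
RPM on a linear axis from 0 in each of the 12 libraries (points) for 8 cadherins, with the mean and SD of each group of 3 libraries as bars; the dotted line separates the culture table (left) from the genotype table (right). Cdh2 sits between 249 and 277 RPM in myoblasts and at 12.8 RPM or less in every other library, whereas Cdh15 lies between 98.3 and 216 RPM in all 12.

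Of the 5 type II classical cadherins tested 4 were called, all higher in myoblasts, beside 22.2% of all genes called higher. Of these 4, Cdh18 and Cdh10 passed the filter only through the myoblasts, where a higher level was fixed by the filter. Cdh11, known from mesenchymal cells and bone, was at 0.548, 0.567 and 0.142 RPM in fresh MuSCs and at 15.5, 15.6 and 23.6 RPM in myoblasts. The groups were far apart, with a difference of 3.75 in log2(RPM + 1) (SE 0.33, limma adjusted p = 4.64e-05). Cdh6, K-cadherin of the developing kidney and nervous system, was at 1.14, 0.294 and 1.16 RPM in fresh MuSCs and at 11.1, 17.6 and 13.1 RPM in myoblasts. Its difference was 3.01 (SE 0.35, limma adjusted p = 0.000229), and the lowest myoblast library was above every fresh MuSC library.

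Cdh18, a cadherin of the nervous system, was at 0.0249 RPM in fresh MuSC 04 and listed at 0 in fresh MuSC 05 and 06. In myoblasts it was at 1.69, 4.28 and 1.96 RPM, and the fitted difference was 1.79 (SE 0.28, limma adjusted p = 0.00125). Cdh10 was at 0.0601 RPM or less in fresh MuSCs and at 1.21, 0.289 and 0.61 RPM in myoblasts (limma adjusted p = 0.0341), a call that was lost with a plain limma fit (0.0618) and without any single library other than myoblast 05 (0.0553 to 0.0919). Cdh5, the cadherin of endothelial junctions, was at a mean of 0.108 RPM in fresh MuSCs and 0.153 RPM in myoblasts and was not tested. Of the 9 endothelial markers 4 were listed in this table, and their summed level was 43.8 to 46.5 RPM in fresh MuSCs and 11.5 to 21.7 RPM in myoblasts, with Tek lower and called, and Pecam1, Flt1 and Egfl7 at means of 12.9, 0.298 and 1.73 RPM and then 9.73, 0.392 and 4.41 RPM, not called. Besides the myofibre and activated myoblast lists, the lists that summed higher in myoblasts were those of tendon cells (2 of 5 genes listed, without Tnmd, Kera or Fmod), at 10.9 to 11.5 RPM and then 23 to 107 RPM, mostly from Scx, of mural cells (7 of 7 listed), at 1126 to 1421 RPM and then 1666 to 2430 RPM, mostly from Acta2 and with Kcnj8 lower, and of immune cells (5 of 8 listed), at 2.74 to 6.81 RPM and then 15.5 to 23.6 RPM, mostly from Laptm5. The part of these cells in the values of the type II cadherins was not tested.

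The other cadherins moved in opposite directions. Cdh13 encodes T-cadherin, which lacks the cytoplasmic tail and is held in the membrane by a lipid anchor. It was at 606, 708 and 410 RPM in fresh MuSCs and at 169, 114 and 153 RPM in myoblasts, means of 574 ± 151 and 145 ± 28.3 RPM (SD, n = 3). The difference was -1.96 in log2(RPM + 1) (SE 0.25, limma adjusted p = 0.000348), the lowest fresh MuSC library being well above the highest myoblast library. The fibroadipogenic marker list, 8 of 8 listed, summed to 2131 to 2347 RPM in fresh MuSCs, mostly from Col3a1 and Dpt, and 123 to 192 RPM in myoblasts. Dpt, Dcn, Col1a1 and Col3a1 were called lower and Ly6a higher, the last at means of 0.152 and 1.94 RPM. Pi16 and Pdgfra were not called, with Pdgfra at 2.83 RPM or less throughout, and Lum was not tested. The part of this list in the lower levels of Cdh13 and Pcdh18 was not tested. Cdh23, a long cadherin of the hair cell tip link, rose from 1.62, 1.3 and 1.04 RPM to 13, 4.81 and 5.24 RPM, a difference of 1.79 (SE 0.40, limma adjusted p = 0.00688). Cdh17, the intestinal cadherin, was at means of 3.12 and 3.98 RPM and did not pass the test (limma adjusted p = 0.504).

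Among the delta protocadherins, which signal through conserved cytoplasmic motifs and in part through the WAVE complex, 2 of 8 were called, beside 42.8% of all genes. Pcdh18 fell from 124, 67 and 60.3 RPM in fresh MuSCs to 19.3, 24.7 and 14.6 RPM in myoblasts. The groups did not overlap, and the difference was -2.0 in log2(RPM + 1) (SE 0.32, limma adjusted p = 0.00134). Pcdh1 was at 0.0695 RPM or less in fresh MuSCs and at 0.486, 6.54 and 4.92 RPM in myoblasts, a difference of 1.96 (SE 0.53, limma adjusted p = 0.0167). Pcdh1 passed the filter only through the myoblasts, where a higher level was fixed by the filter. Myoblast 04 was the low library of the 3, and without it the difference was 2.68. The call of Pcdh1 was lost without fresh MuSC 05 or myoblast 05 or 06 (limma adjusted p = 0.0544 to 0.0577).

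Pcdh7 was at 40.5, 47.3 and 33.3 RPM in fresh MuSCs and at 9.38, 53.3 and 45.3 RPM in myoblasts, and the difference of -0.47 (SE 0.56, limma adjusted p = 0.528) turned to 0.29 without myoblast 04. Pcdh17 was at 13.4, 1.97 and 3.84 RPM and then 1.46, 1.31 and 3.05 RPM (limma adjusted p = 0.158). Pcdh9 and Pcdh19 had means of 2.07 to 3.73 RPM in either state, with differences near 0.2 that changed sign when a library was left out. Of the other protocadherins, Pcdh20 was listed at 0 in all 3 fresh MuSC libraries and stood at 3.19, 6.69 and 4.99 RPM in myoblasts (limma adjusted p = 0.000187), so it passed the filter only through the group where it is high. Pcdh15, the partner of Cdh23 in the tip link, was at means of 0.36 and 1.55 RPM with groups that did not overlap and missed the threshold (limma adjusted p = 0.058).

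**Figure D2:**
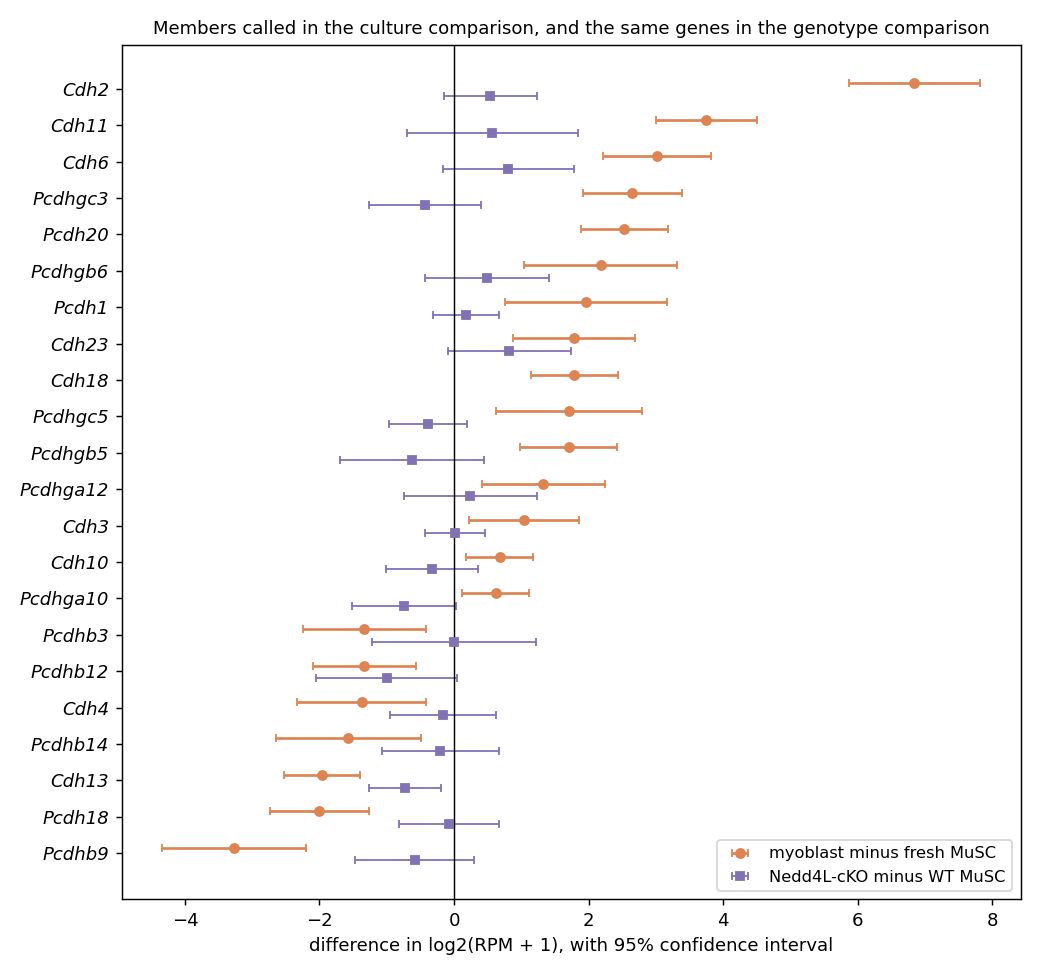
Difference in log2(RPM + 1) with its 95% confidence interval for the 22 members called in the culture comparison (orange circles, myoblast minus fresh MuSC) and the same genes in the genotype comparison (purple squares, Nedd4L-cKO minus WT MuSC) where tested. Cdh2 stands alone at 6.84 on the right and Pcdhb9 at -3.27 on the left, and of the purple intervals only that of Cdh13 lies wholly on one side of 0.

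The clustered protocadherins are hard to count separately. Gamma genes join 1 of many first exons to shared last exons, and in the annotation 41.5 to 46.4% of a gamma transcript lay in exons shared with another member. Only 0.6 to 59.7% of the 31-base words of a gamma gene's transcripts (median 45.6%) occurred in no other gene, against 33.1 to 94.8% (median 85.5%) for the beta genes and 94.9 to 99.9% for the type II cadherins. The values of single gamma genes, and those of Pcdhb12 at 33.1% among the beta genes, are therefore uncertain to the extent that the counting split shared reads.

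In culture the beta genes called were all lower and the gamma genes called all higher in myoblasts. The 20 beta genes, all tested, had 17 differences below 0 with a median of -0.62, and the 22 gamma genes had 4 below 0 with a median of 0.53, beside 48.3% of all genes below 0 and a median of 0.04. The summed level of the beta genes was 68, 97.7 and 118 RPM in fresh MuSCs and 36.5, 49.1 and 55.1 RPM in myoblasts. The sum of the gamma genes was 87, 102 and 99.1 RPM in fresh MuSCs and 144, 198 and 157 RPM in myoblasts. Neither pair of sums overlapped, and these sums carry no test, since 3 libraries against 3 allow no exact permutation p below 0.1. The 5 alpha genes, 4 of them listed here, summed to at most 3.98 RPM in any library and were not tested.

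Pcdhgc3, 1 of the 3 C-type genes at the end of the gamma array, held most of the difference between the gamma sums, with 22.8% of its transcript words its own. It was at 6.16, 14.6 and 9.69 RPM in fresh MuSCs and at 66.1, 78 and 54.3 RPM in myoblasts, a difference of 2.65 in log2(RPM + 1) (SE 0.32, limma adjusted p = 0.000295) with no overlap. Its neighbour Pcdhgc4 was high in both states at 48.2, 48.6 and 55.1 RPM and then 32.4, 45.8 and 39.4 RPM, lower in every myoblast library without passing the test (limma adjusted p = 0.199). Pcdhgc5 was at 0.167, 0.649 and 0.74 RPM and then 1.27, 7.92 and 4.76 RPM (limma adjusted p = 0.0188), a call lost without fresh MuSC 04 or myoblast 05 or 06 (0.0565 to 0.0646). Without these 3 genes the other 19 gamma genes summed to 32.4, 37.7 and 33.5 RPM in fresh MuSCs and to 44.6, 66.1 and 58.5 RPM in myoblasts.

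Of those 19, 4 were called, all higher in myoblasts, beside 22.2% of all genes called higher. Pcdhgb6 rose from 0.183, 0.258 and 2.27 RPM to 3.42, 9.19 and 9.02 RPM (difference 2.18, SE 0.50, limma adjusted p = 0.00777). Pcdhgb5 went from 0.983 RPM or less to 2.72, 3.16 and 4 RPM (limma adjusted p = 0.00275). Pcdhga12 was at 0.373, 2.08 and 1.45 RPM and then 6.72, 4.12 and 3.14 RPM (limma adjusted p = 0.0264), a call not kept with the mouse as a block (adjusted p = 0.0506) or without fresh MuSC 04 or 06 or myoblast 04 or 05 (0.0545 to 0.0787). Pcdhga10, of whose transcript words 0.6% are its own, passed narrowly (limma adjusted p = 0.0473) and failed with the block (adjusted p = 0.0855), with a plain limma fit (0.0763) and without fresh MuSC 04 or 05 or myoblast 04 or 05 (0.0877 to 0.141). Pcdhga7 had means of 3.79 and 6.09 RPM and was not called, but was called without fresh MuSC 06 (limma adjusted p = 0.0151).

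Of the 20 beta genes 4 were called, all lower in myoblasts, beside 20.6% of all genes called lower. Pcdhb9 was the highest beta gene in fresh MuSCs at 9.07, 17.9 and 27.4 RPM and fell to 0.223, 0.777 and 1.78 RPM, a difference of -3.27 (SE 0.47, limma adjusted p = 0.000699). Pcdhb14 fell from 8.04, 5.59 and 10.1 RPM to 0.595, 1.84 and 4.55 RPM (limma adjusted p = 0.0262), a call lost without fresh MuSC 04 or 06 or myoblast 04 or 05 (0.0544 to 0.0849). Pcdhb12 fell from 2.02, 1.74 and 4.02 RPM to 0, 0.933 and 0.336 RPM (limma adjusted p = 0.0121). Pcdhb3 fell from 0.886, 3.59 and 4.47 RPM to 0.186, 0.4 and 0.792 RPM (limma adjusted p = 0.0271), lost without fresh MuSC 05 or 06 or myoblast 04 or 05 (0.0683 to 0.0853).

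Several abundant beta genes did not pass the test. Pcdhb17 was at 12.9, 15.5 and 12.7 RPM in fresh MuSCs and at 9.85, 8.39 and 9.76 RPM in myoblasts, lower in all 3 without passing the test (limma adjusted p = 0.166). Pcdhb16 had means of 6.97 and 3.79 RPM, Pcdhb20 of 9.72 and 6.01 RPM, Pcdhb19 of 5.65 and 4.54 RPM and Pcdhb21 of 4.05 and 4.52 RPM, with limma adjusted p from 0.185 to 0.731. Pcdhb7, at 0.489, 7.2 and 8.36 RPM in fresh MuSCs, was called only without fresh MuSC 04 (limma adjusted p = 0.0489). The highest of 3 fresh MuSC libraries exceeded 5 times the lowest for 17 of 22 gamma and 10 of 20 beta genes, for 11 of the 22 non-clustered members, and for 13.4% of all genes tested. In myoblasts the same held for 7 gamma, 10 beta and 3 non-clustered members and for 8.96% of all genes. The median level in fresh MuSCs was 1.83 RPM for gamma and 3 RPM for beta genes, against 15.3 RPM for all genes tested. In myoblasts it was 3.03 RPM for gamma and 1.29 RPM for beta genes, against 17.1 RPM.

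**Figure D3:**
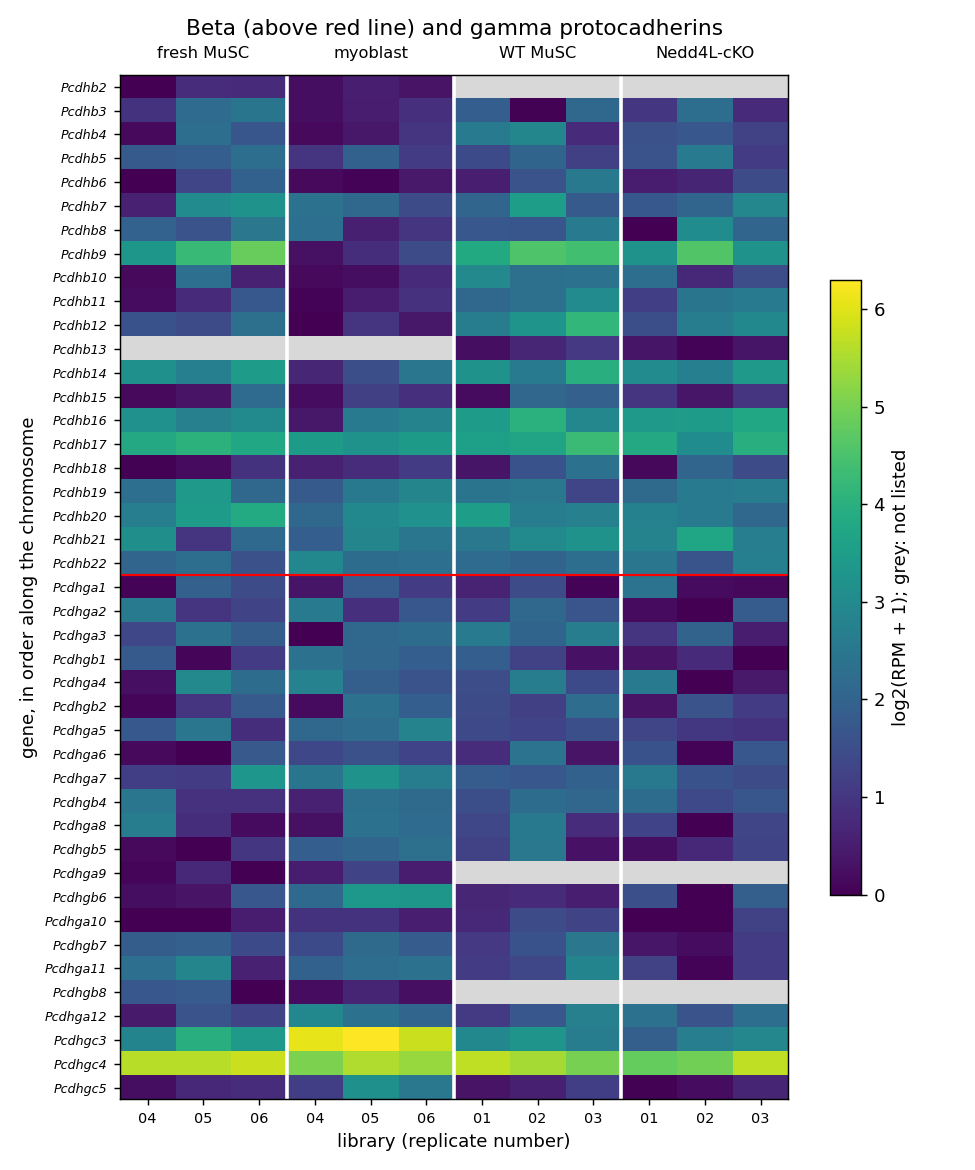
Log2(RPM + 1) of the beta (above the red line) and gamma genes, in chromosome order, in the 12 libraries, with grey where a gene is not listed. Pcdhgc3 is bright in the 3 myoblast libraries (54.3 to 78 RPM) and Pcdhgc4 in all 12, while Pcdhb9 is dark only in myoblasts (0.223 to 1.78 RPM).

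The genes that work with cadherins were read from lists of their partners, 71 of which could be tested. 36 of the 71 were called in culture, 17 higher and 19 lower, which is 50.7% beside 42.8% of all genes, with a median difference of -0.38. Pkp1, Pkp3, Ctnnd2, Celsr3, Fat3, Snai3 and Nckap1l, all called higher, reached 10 normalized counts in no fresh MuSC library. These genes passed the filter only through the myoblasts, which fixed their direction. The counts called, here and per list, are therefore not independent of the filter. Among the cytoplasmic partners 6 of 15 were called. The core catenins were not among them: Ctnna1 (alpha-catenin) was at 327, 307 and 246 RPM in fresh MuSCs and 406, 373 and 347 RPM in myoblasts, Ctnnb1 (beta-catenin) at 315, 198 and 205 and then 344, 314 and 258 RPM, and Ctnnd1 (p120-catenin) at 126, 104 and 104 and then 111, 114 and 77.5 RPM. Pkp2, a desmosomal plakophilin, rose from 0.629, 0.123 and 0.992 RPM to 24.6, 43.3 and 29.2 RPM (difference 4.40, limma adjusted p = 3.3e-05). Vcl (vinculin, which binds alpha-catenin under tension) rose by a difference of 2.31, Pkp1, Pkp3 and Ctnnd2 rose from at most 0.208 RPM, and Afdn (afadin) fell by 1.14 on the log2(RPM + 1) scale.

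Of the 4 genes tested from the list of nectins, which are the immunoglobulin-type partners of cadherin junctions, 3 were called. The other was Pvr, at means of 41.5 RPM in fresh MuSCs and 29.4 RPM in myoblasts (limma adjusted p = 0.248). The counts in this and the next lists are to be read beside the 42.8% of all genes called, to which several are close. Nectin3 fell from 87.6, 58.8 and 58 RPM to 8.54, 13.1 and 19.9 RPM and Nectin1 from 11.4, 6.85 and 7.19 RPM to 2.12, 2.53 and 2.87 RPM, whereas Nectin2 rose from 9.7, 6.26 and 8.78 RPM to 51.5, 26.3 and 24.1 RPM. In the rest of the cadherin superfamily 7 of 14 were called. Clstn1 (calsyntenin) fell by 3.03 and Ret (a receptor tyrosine kinase with cadherin-like domains) by 4.04. Clstn2 also fell, and Fat1, Fat3, Celsr3 and Cdhr5 rose by differences of 0.53 to 1.93.

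Of the transcription factors known to repress cadherin genes, 5 of 6 were called. Zeb2 fell by 1.51 and Snai2 by 0.95, and Snai1, Snai3 and Tcf3 rose by differences of 1.59, 2.32 and 2.03, Snai3 from 0 in all fresh MuSC libraries. Of the 9 proteases and gamma-secretase subunits that cleave cadherins, 6 were called: Aph1a rose by a difference of 2.26, and Ncstn, Psenen, Adam10, Aph1b and Aph1c fell by 0.66 to 1.24. Of the 13 genes known to act on the protocadherin clusters, 5 were called, all lower: the cohesin genes Smc1a, Smc3, Stag1 and Stag2 and the loader Nipbl fell by 0.81 to 1.23, while Ctcf was at 35.9, 76.8 and 69.6 RPM and then 13.8, 72.8 and 37.7 RPM (limma adjusted p = 0.286). Of the 10 WAVE complex genes 4 were called, Abi2 lower by 2.69 and Wasf1, Cyfip2 and Nckap1l higher by 1.77 to 2.41. 24 of the 36 calls held in every alternative that tested them, and the other 12 (Adam10, Afdn, Aph1b, Aph1c, Clstn2, Cyfip2, Fat1, Fat3, Pkp3, Smc1a, Snai1 and Snai2) were lost in at least 1, with adjusted p from 0.051 to 0.146.

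The second comparison asked whether deletion of Nedd4L in the Pax7 lineage altered any member in freshly sorted MuSCs. Calls needed a limma adjusted p of at most 0.05, a difference of at least 1 in log2(RPM + 1) and a mean of at least 5 RPM. None of the 63 members tested was called, beside 0.653% of all 15304 genes tested (100 genes, 69 higher and 31 lower, or 87 with 49 higher when each library was scaled to its own total). At this background 63 genes would hold fewer than 1 call. At an unadjusted p under 0.05 in limma, 6 of the 63 members passed, 1 higher and 5 lower, against 14.6% of all genes (7.51% higher and 7.13% lower). Among the lower ones, Pcdh15 passed the filter on low values only through the WT libraries, so its direction was fixed by the filter. 43 of the 63 members had a difference below 0, with a median of -0.25, where 49.9% of all genes lay below 0 with a median of 0.00 (-0.09 when each library was scaled to its own total).

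T-cadherin was the most abundant of those 6. Cdh13 was at 453, 492 and 506 RPM in WT 01, 02 and 03 and at 284, 365 and 237 RPM in Nedd4L-cKO 01, 02 and 03. All 3 Nedd4L-cKO libraries lay below all 3 WT libraries, with means of 484 ± 27.5 and 295 ± 64.7 RPM (SD, n = 3). The difference was -0.73 (SE 0.24, 95% interval -1.26 to -0.20), which did not pass after adjustment (limma adjusted p = 0.203, 0.0985 to 0.51 over the alternatives). Groups did not overlap for 6 of the 63 members, 1 higher and 5 lower (Pcdh15 again among them), against 19.3% of all genes (9.75% higher and 9.59% lower). The mural marker list, pericyte and smooth muscle genes, did not overlap either, in the other direction, at 1196 to 1943 RPM in WT and 2193 to 3269 RPM in Nedd4L-cKO, and its part in the Cdh13 values was not tested.

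Neither M-cadherin nor N-cadherin passed the test between genotypes. Cdh15 was at 140, 122 and 147 RPM in WT and at 98.3, 142 and 154 RPM in Nedd4L-cKO, and the difference was -0.07 (95% interval -0.63 to 0.48). Cdh2 was at 8.61, 6.44 and 6.47 RPM in WT and at 10.3, 12.8 and 9.54 RPM in Nedd4L-cKO, higher in 3 of 3 libraries by 0.54 (SE 0.32, 95% interval -0.15 to 1.23, limma adjusted p = 0.462). The myofibre list, 8 of 8 genes at 1 RPM or more, also stood higher in every Nedd4L-cKO library, at 249 to 483 RPM in WT and 528 to 626 RPM in Nedd4L-cKO, and its part in the Cdh2 values was not tested. Cdh4 was at means of 3.72 and 3.32 RPM and Cdh3 at 0.348 and 0.366 RPM, with differences of -0.16 and 0.01, the last of which changed sign when each library was scaled to its own total.

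The libraries of this table held markers of other cell types. All 7 mural genes were at 1 RPM or more in every library. All 5 tendon cell genes were likewise at 1 RPM or more throughout, and their sum ran from 185 to 1555 RPM in WT and from 347 to 1296 RPM in Nedd4L-cKO, whereas Tnmd, Kera and Fmod were not listed in the culture table. The fibroadipogenic list, of which 6 to 8 of 8 genes reached 1 RPM, summed to 1771 to 3094 RPM and 1669 to 3648 RPM, with the defining gene Pdgfra at 1.34 RPM or less. The Schwann cell list, 4 to 7 of 7 genes at 1 RPM, summed to 38.1 to 65.9 RPM and 17.3 to 63.7 RPM, with Sox10 at 0 in Nedd4L-cKO 01 and 02.

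Pcdh19, a delta protocadherin of the nervous system, had the largest difference of any member. It was at 0.835, 1.7 and 7.59 RPM in WT and at 6.67, 9.04 and 23.8 RPM in Nedd4L-cKO 01, 02 and 03, a difference of 1.83 (SE 0.59, 95% interval 0.53 to 3.12, limma adjusted p = 0.192, 0.0527 to 0.498 over the alternatives). The lowest Nedd4L-cKO library was below the highest WT library. The whole mural list summed to 1323, 1196 and 1943 RPM in WT and to 2193, 2517 and 3269 RPM in Nedd4L-cKO. The part of mural RNA in the Pcdh19 values was not tested.

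Cdh11 was at 4.31, 1.12 and 10.3 RPM in WT and at 9, 9.05 and 3.1 RPM in Nedd4L-cKO, with overlapping groups and a difference of 0.57 that turned to -0.06 without WT 02. In the same libraries the fibroadipogenic list summed to 3094, 1771 and 2747 RPM and to 3648, 2312 and 1669 RPM, and the tendon list to 1555, 185 and 762 RPM and to 1296, 570 and 347 RPM. Cdh19, a cadherin of the Schwann cell lineage listed in this table alone, was at 3.37, 1.76 and 17.2 RPM in WT and at 3.94, 2.14 and 3.04 RPM in Nedd4L-cKO, and its difference of -0.60 turned to 0.19 without WT 03. Cdh6 was at 0.262, 1.18 and 2.08 RPM and at 1.02, 3.15 and 4.43 RPM, a difference of 0.81 (limma adjusted p = 0.431). The part of such cells in these values was not tested.

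None of the other delta protocadherins passed the test. Pcdh18 was at 101, 144 and 58 RPM in WT and at 68, 89.5 and 118 RPM in Nedd4L-cKO, a difference of -0.08 (95% interval -0.82 to 0.67). Pcdh7 was at 56.5, 53.3 and 62.2 RPM and at 32.7, 46.7 and 57.8 RPM, Pcdh17 at means of 12.5 and 6.97 RPM, and Pcdh9 at 8.44 and 5.36 RPM with no overlap, with limma adjusted p from 0.451 to 0.586. Pcdh15 was at 0.412, 1.18 and 5.57 RPM in WT and at 0.13 RPM or less in Nedd4L-cKO, a difference of -1.34 (limma adjusted p = 0.208). It passed the filter only through the WT libraries, so its lower level in Nedd4L-cKO was fixed by the filter. It stood below 5 RPM on average in each group and was named because it was among the 6.

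Of the 41 clustered genes tested 31 had a difference below 0 and 0 were called, with medians of -0.26 for the 20 beta and -0.52 for the 20 gamma genes. Of all genes 49.9% lay below 0, with a median of 0.00, or -0.09 when each library was scaled to its own total. The clustered genes were not tested against this background. Their sums overlapped for the beta array, at 97.2, 122 and 134 RPM in WT and 74, 107 and 96.3 RPM in Nedd4L-cKO, and for the gamma array, at 85.4, 97.5 and 78.7 RPM and 62.2, 49.2 and 82.8 RPM. The 3 clustered genes at an unadjusted p under 0.05 were Pcdhga3, Pcdhgb7 and Pcdhb10, all lower. Pcdhb10 was at 6.82, 4.01 and 4.24 RPM in WT and at 3.86, 0.624 and 1.82 RPM in Nedd4L-cKO (difference -1.07, limma adjusted p = 0.298). Pcdhb9, at 13.2, 22.8 and 20.1 RPM and 8.34, 23.1 and 8.34 RPM, and Pcdhgc3, at 6.64, 8.55 and 5.3 RPM and 2.78, 5.47 and 6.61 RPM, were not called, nor was Pcdhgc4 at means of 41.7 and 36 RPM. Pcdhb12 was at 5.38, 8.61 and 17.1 RPM in WT and 1.85, 5.31 and 6.66 RPM in Nedd4L-cKO (limma adjusted p = 0.361).

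Of the partner genes 67 were tested in the genotype table and 1 was called, a share of 1.49% beside 0.653% of all genes, at which 67 genes would hold fewer than 1 call. Ctnnal1 (alpha-catulin, an alpha-catenin relative) was at 27.1, 26 and 39.9 RPM in WT and at 6.44, 9.31 and 5.87 RPM in Nedd4L-cKO. All 3 Nedd4L-cKO libraries lay below all 3 WT libraries, and the difference was -1.96 (SE 0.31, limma adjusted p = 0.0189). The call was lost without WT 03 (limma adjusted p = 0.0501) or Nedd4L-cKO 01 (0.0592) or 02 (0.0548). Ctnna1, Ctnnb1 and Ctnnd1 had differences of -0.28, 0.21 and -0.56, with limma adjusted p from 0.414 to 0.717. Jup (plakoglobin) was at 57.8, 68.9 and 30.1 RPM and at 16.5, 18.9 and 21.5 RPM, without overlap, at a limma adjusted p of 0.0911.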

How the data were processed

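The study measured RNA by SMART-Seq HT in 12 libraries of 1000 sorted or cultured cells. According to its methods, 75-base single reads were quantified by the authors with kallisto 0.46.1 on GENCODE M28 basic, summarised per gene with tximport and normalized with DESeq2. The 2 deposited tables, one per comparison, hold these normalized counts, a signal per gene that the authors had already divided by normalization factors, so neither raw counts nor a count model were used. The tables also hold the authors' fold changes, p-values and, in one table, RPM, none of which were used here.

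Normalized counts were divided by the mean of the 6 library totals of their table (RPM). 40.0 to 60.7% of low values were whole steps of 1 read, so reads were not recovered. Genes that reached 10 normalized counts in 3 or more libraries were compared by limma 3.58.1 in R 4.3.3 on log2(RPM + 1), with trend and robust moderation and Benjamini-Hochberg adjustment over all genes tested. Alternatives were another scaling, TMM factors, a pseudocount of 0.1 RPM, other filters, plain limma, a replicate block and each library left out. Members called in either comparison, those with a mean of at least 5 RPM in a group and all type I cadherins are named, and partners by their list. The members and lists were chosen with earlier results of these data known. Gene positions and shared 31-base words came from GENCODE M39 (GRCm39).

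Same-numbered fresh MuSC and myoblast libraries come from the same mouse, as the series' design text and the shared numbers in the labels give it. Their deviations from the group means correlated at -0.0314, -0.00502 and 0.018 over genes. Mice are the replicates, and with 3 libraries a group the smallest exact permutation p is 0.1.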

Additional observations from a re-analysis of the deposited data

How the results depend on the processing

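With at least 10 normalized counts required in every library, 10 members were called in culture, 6 higher and 4 lower, since members near 0 in 1 state were then not tested. A pseudocount of 0.1 RPM moved 17 of the 22 called differences by more than 1.5-fold, each away from 0. Every other setting gave 19 to 24 calls, and leaving out 1 library gave 15 to 22 (10 to 16 higher and 5 to 8 lower). A replicate block for the mouse left 19 members and 6078 of all genes called. In the genotype table the replicate numbers mark no shared source, and same-numbered deviations correlated at 0.0192, -0.0232 and -0.181. A replicate block there gave 0 members and 62 of all genes, and the block changed no member call beyond the 3 given above (Cdh3, Pcdhga10 and Pcdhga12). The genotype count of members was 0 in every setting run, while the count over all genes ran from 41 with plain limma to 195 with the strict filter, and from 17 (without Nedd4L-cKO 02) to 106 when 1 library was left out. The partner genes called in the genotype table were 3 with the strict filter, 2 at an adjusted p of at most 0.05 alone, and 0 to 2 when 1 library was left out. In culture they were 26 to 39 when 1 library was left out. The partner gene added in the genotype table at the adjusted p alone was Dsg1c (limma adjusted p = 0.0342, mean of 0.944 RPM). It stood at 0.0225 RPM or less in WT and passed the filter only through the Nedd4L-cKO libraries, which fixed its direction.

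Differences that changed sign were all from members that were not called in the comparison concerned. With each library scaled to its own total the genotype difference was -0.012 for Cdh3, -0.045 for Pcdhb16 and -0.063 for Pcdhga7, and with a pseudocount of 0.1 RPM it was -0.011 for Cdh3 and 0.51 for Pcdhb3, whose cause was not tested. When 1 library was left out the genotype difference ran from -0.60 to 0.0021 for Cdh10, -0.056 to 1.15 for Cdh11, -0.20 to 0.12 for Cdh15, -1.17 to 0.19 for Cdh19, -0.11 to 0.079 for Cdh3 and -0.43 to 0.22 for Pcdh18. For the beta genes it ran from -0.54 to 0.14 for Pcdhb14, -0.20 to 0.35 for Pcdhb16, -0.40 to 0.048 for Pcdhb17, -0.0030 to 0.60 for Pcdhb19, -0.17 to 0.34 for Pcdhb21, -0.66 to 0.38 for Pcdhb3 and -0.56 to 0.31 for Pcdhb7. For the gamma genes it ran from -0.14 to 0.69 for Pcdhga12 and -0.29 to 0.24 for Pcdhga7. In culture the range was -0.36 to 0.72 for Pcdh19, -0.90 to 0.29 for Pcdh7, -0.40 to 0.66 for Pcdh9, -1.06 to 0.014 for Pcdhb10, -0.46 to 0.18 for Pcdhb19, -0.23 to 0.86 for Pcdhb21 and -1.15 to 0.18 for Pcdhb7. Normalized counts carry no counting interval, and members below about 1 RPM rest on few reads.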
